A study of Mus musculus with 3 samples.

Results

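Of the 22206 transcript clusters measured in AT2 cells, 134 differed from air in the same direction and to nearly the same extent on both cigarette smoke (CS) arrays. A transcript cluster is the group of probes that the array assigns to 1 gene. A cluster was counted when each CS array lay at least 1 log2 unit, that is 2-fold, above air or at least 1 below it, when the CS arrays lay less than 0.5 log2 apart, and when the brighter side was above background. Background was the 95th percentile of 1414 clusters of olfactory and vomeronasal receptors, genes of sensory neurons, and is called the receptor level below. In all, 87 clusters were higher with CS (0.392% of all clusters) and 47 were lower (0.212%). These log2 differences chose the clusters, so the values below describe them, and no test was made.

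The AT2 cells came from female Sftpc/GFP mice on a CBA/Ca × C57BL6J background, 9 to 11 weeks old, in which GFP marks cells that express surfactant protein C. This reporter is strong in AT2 cells and weak in a few cells of the bronchioalveolar duct junction and terminal bronchioles, and the sort took cells high in both EpCAM and GFP. Control mice breathed air, the continuous CS mice received mainstream smoke by nasal inhalation in 3 successive weeks, and the intermittent CS mice received it in 3 weeks that alternated with weeks of air. Each smoke week had 5 daily sessions of 60 minutes, the protocol lasted 5 weeks, both CS groups had smoke in the last week, and mice were killed 24 hours after the last smoke. Cells of 3 mice were pooled for each exposure and hybridized to 1 Clariom S array, so there is no replicate and no error for any value, and both CS arrays are read against the same air array. None of the sources used here gives the hour of the day at which each group was killed. Exposure and any other difference between the air pool and the CS pools cannot be told apart.

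The arrays were alike in level, with medians from 5.66 to 5.70, receptor levels from 5.14 to 5.19 and 55.8% to 56.3% of clusters above that level. All 22 measured AT2 markers lay above the receptor level on each array, and 5 of them were at the upper limit of the scale, 19.93, on every array, where no difference can be read. The median difference of the mean CS value from air was 0 over all clusters, with a standard deviation of 0.308, or of 0.216 among receptor clusters alone. The largest of all these differences belonged mainly to the circadian clock: 7 of the 10 clusters farthest from air were genes of the clock lists.

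The circadian clock is a feedback loop of transcription found in nearly every cell, and the lung epithelium has one of its own. BMAL1, encoded by Arntl, pairs with CLOCK or NPAS2 and switches on genes that carry E-boxes in their promoters, among them the Per, Cry, Nr1d and Dbp genes. PER and CRY proteins then shut off their own activators, and the NR1D proteins (REV-ERBs) repress Arntl, Npas2 and Nfil3 through ROR elements, so that activators and repressors of the loop peak at opposite times of day.

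The count of members is read against how often an array passed 2-fold at all. The continuous CS array was at least 2-fold above air at 1.13% of clusters and below it at 0.473%. On the intermittent CS array these shares were 0.833% and 0.716%. Of the receptor clusters, 1 met the rule as higher and 2 as lower, 0.212% of them against 0.603% of all clusters. The brightness limit was taken from these same clusters and left most of them out beforehand, so the 2 shares are not alike. By the distances alone, without that limit, 2 of the 1414 receptor clusters were higher and 2 lower. Of all 22206 clusters, 90 were higher and 47 lower. These sets differ in size, so the counts cannot be compared as they stand. Higher members differed from air by 1.01 to 8.30 on the log2 scale as the mean of both CS arrays, with a median of 1.35. Lower members went as far as -5.64 with a median of -1.48. Most members were close to the threshold: 62 of the 87 higher and 27 of the 47 lower clusters differed by less than 3-fold, and 7 members differed by 8-fold or more. Within the permitted gap the intermittent CS value was above the continuous CS value in 50 higher members and below it in 34. In lower members it was below the continuous CS value in 24 and above it in 20.

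**Figure D1:**
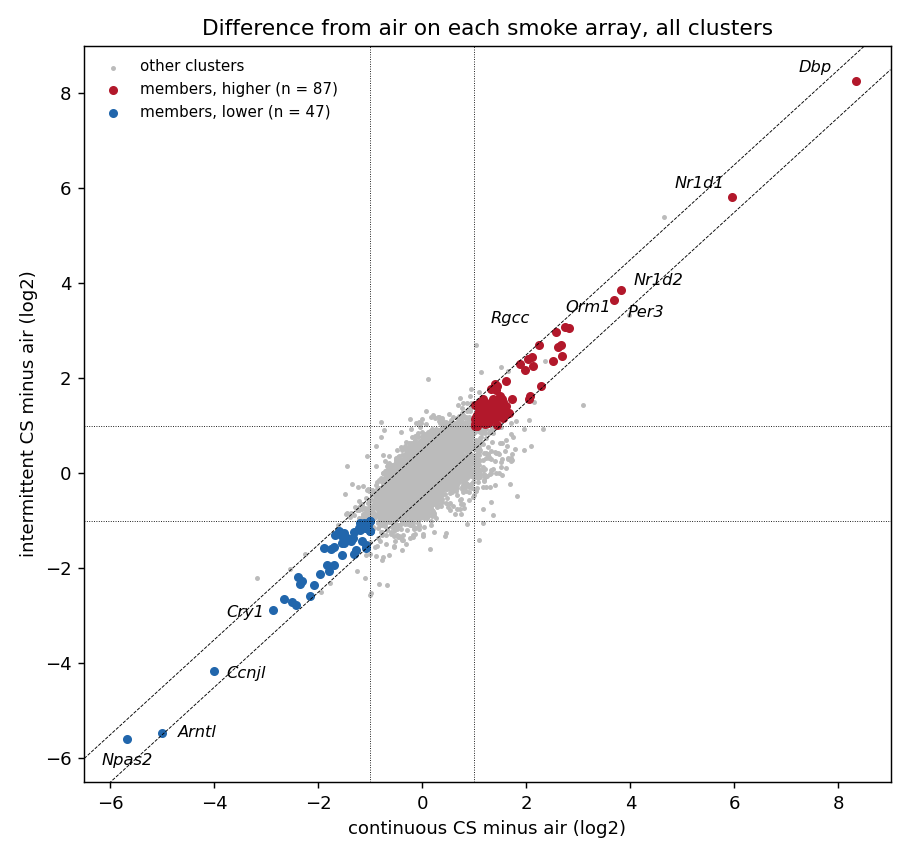
Difference from air on the continuous CS array (x axis, log2) against that on the intermittent CS array (y axis, log2) for all 22206 clusters, 1 point per cluster, with the 87 higher members in red, the 47 lower members in blue, dotted lines at 1 log2 unit from air and dashed lines at a gap of 0.5. Dbp, Nr1d1, Nr1d2 and Per3 lie farthest out among higher members, and Npas2, Arntl and Ccnjl among lower members. Both axes share the air array, so the slope of the cloud is not a result.

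Among the members, 13 belonged to the clock lists, which hold 27 measured genes. Thus 48.1% of the measured clock genes were members, against 0.641% of all genes with a symbol. The lists were chosen with earlier results of these data known, so such shares describe the lists and test nothing. Of the 7 members with a difference of 8-fold or more, 6 were clock genes. The list of clock repressors and outputs had 9 higher members and 1 lower among 16 measured genes and a median difference of 1.94. The list of clock activators and genes of their phase had 0 higher and 4 lower among 12, with a median of -0.36. Cry1 stands in both lists.

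Dbp, a transcription factor that carries the clock's rhythm to other genes through D-boxes, stood at 9.67 with air, 18.02 after continuous CS and 17.93 after intermittent CS. The mean difference of 8.30 is 315-fold and was the largest of any cluster in the series. Both CS arrays were far above air and almost level with each other. Nr1d1, which encodes REV-ERB alpha, read 8.47 on air, 14.43 after continuous CS and 14.28 after intermittent CS, a 59.2-fold difference. Nr1d2, its paralog REV-ERB beta, read 9.21, 13.02 and 13.07 in the same order, or 14.3-fold. Both receptors were thus higher on each CS array, and Nr1d1 by the wider margin.

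All 3 Period genes, whose proteins inhibit BMAL1 and its partner, were members. Per3 had the widest difference, 12.7-fold, with 9.08 on air, 12.78 on continuous CS and 12.73 on intermittent CS. Per1 stood at 9.64, 12.15 and 12.01, a difference of 5.43-fold, and Per2 at 8.92, 11.02 and 11.37, a difference of 4.85-fold. The regimens ordered Per1 and Per2 differently, with the higher CS value on the continuous array for Per1 and on the intermittent array for Per2, but every CS value was more than 2 log2 units above air. Bhlhe41, or DEC2, a repressor that binds E-boxes, went from 5.76 on air to 8.04 and 7.60, and the intermittent value was the lower one. Wee1, a kinase that holds back entry into mitosis, was closest to the threshold at 10.81, 12.25 and 11.84. Tspan4, a tetraspanin membrane protein in the list of clock outputs, measured 8.09, 10.15 and 9.66, and its gap of 0.486 between the CS arrays was just inside the limit.

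Npas2 and Arntl, of the positive limb, differed the other way, and so did the repressors Nfil3 and Cry1. Npas2 was at 11.67 on air, with log2 differences from it of -5.67 for continuous CS and -5.60 for intermittent CS. The mean of -5.64, or 49.7-fold, was the lowest of any cluster. Arntl followed with 12.03 on air, 7.01 on continuous CS and 6.56 on intermittent CS, or 37.8-fold. For both genes the CS values lay within 2 log2 units of the receptor level. Nfil3, a repressor that competes with DBP at D-boxes, read 9.33, 7.18 and 6.76, which is 5.15-fold lower with CS. Cry1, a repressor of the loop that peaks later than the Period genes, was 7.29-fold lower, at 8.19 on air and 5.32 on each CS array, barely above the receptor level. Cry1 was therefore the only gene of the repressor list among the lower members.

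Of the other measured clock genes, Ciart, an inhibitor of BMAL1, missed the rule only through the gap between the CS arrays, at 5.62 on air, 9.60 on continuous CS and 8.96 on intermittent CS. Clock fell short of the distance on 1 array, with differences of -1.30 on continuous CS and -0.71 on intermittent CS. Its gap of 0.595 between the CS arrays was also too wide. Csnk1e, a kinase that marks PER proteins, had -0.84 and -0.58. Usp2 (4.09, 5.17 and 4.99), a deubiquitinase under clock control, and Tef (4.74, 5.41 and 5.68), a relative of DBP, stood near the receptor level. Clock genes that lay above that level and differed little included Bhlhe40, the paralog of Bhlhe41, at 16.15, 16.51 and 16.13, Csnk1d at 14.00, 14.26 and 14.15, and Rora, the activating rival of the REV-ERBs, at 10.09, 10.45 and 10.41.

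**Figure D2:**
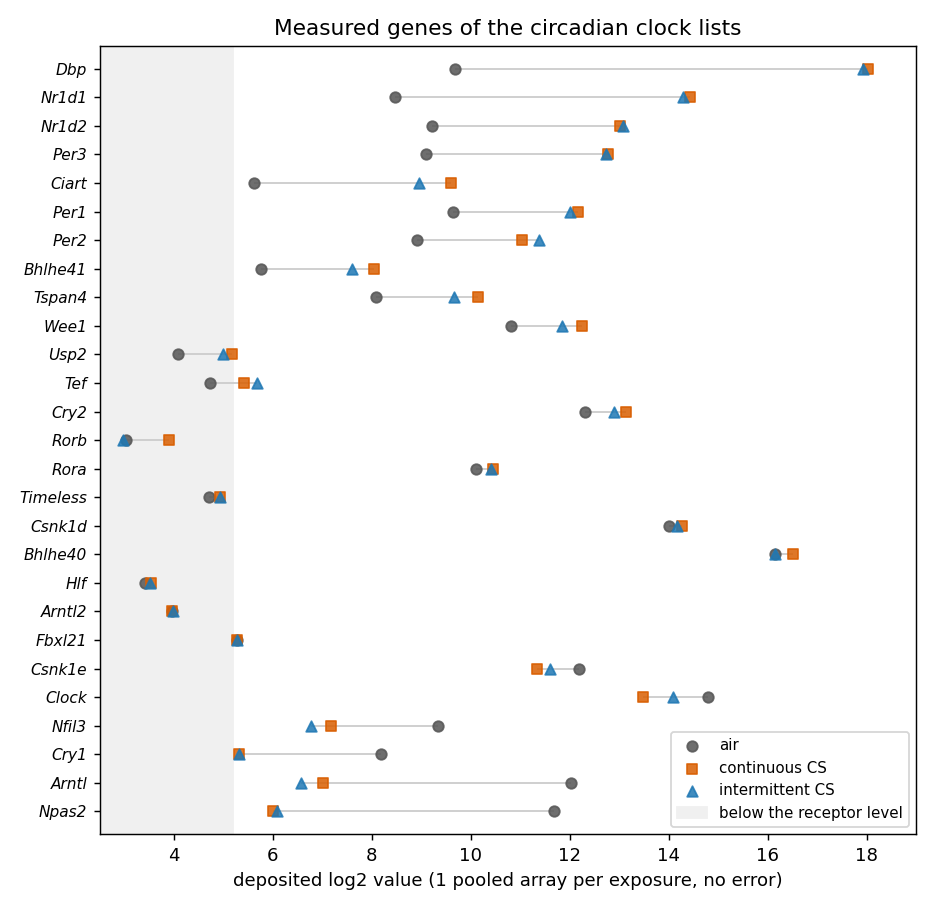
Deposited log2 value (x axis) of the 27 measured genes of the clock lists (y axis), ordered by mean CS minus air, with a grey circle for air, an orange square for continuous CS and a blue triangle for intermittent CS, 1 pooled array each. Shading marks values below the receptor level of the air array. The CS symbols of Dbp, Nr1d1, Nr1d2 and Per3 lie almost on each other to the right of air, and those of Npas2, Arntl and Cry1 to the left.

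Promoters were read from RefSeq on the mouse assembly GRCm38.p6, as windows from 250 bases before to 50 after each annotated start. A window was found for 100 members, 66 higher and 34 lower, and for 11 of the 13 clock members, with several windows for some genes. The E-box CACGTG, which reads the same on both strands, stood in the windows of 13 higher members (19.7%) and 7 lower members (20.6%), against 9.26% of the 15691 array genes with a window. Counted per window in place of per gene, these shares were 15.4%, 13.7% and 8.11%. The clock members with an E-box are shown because they include genes on both sides: Per1, Bhlhe41 and Tspan4 were higher and Cry1 was lower with CS. The windows of Dbp, Nr1d1, Nr1d2, Per3, Arntl, Npas2 and Nfil3 held none, and Per2 and Wee1 had no window. Each stretch lies wholly before the start, 5′ to 3′ on the gene's strand, with the E-box in capitals.
Per1 (chr11:69098743-69098828, plus strand): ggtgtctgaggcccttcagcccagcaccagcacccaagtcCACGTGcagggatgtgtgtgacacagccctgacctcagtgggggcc
Bhlhe41 (chr6:145865528-145865613, minus strand): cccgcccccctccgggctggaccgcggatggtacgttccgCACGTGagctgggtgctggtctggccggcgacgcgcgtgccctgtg
Tspan4 (chr7:141476289-141476374, plus strand): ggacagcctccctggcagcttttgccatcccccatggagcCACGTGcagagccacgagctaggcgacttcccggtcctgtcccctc
Cry1 (chr10:85185069-85185154, minus strand): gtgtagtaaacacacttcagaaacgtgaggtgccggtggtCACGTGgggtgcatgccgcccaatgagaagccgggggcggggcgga

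The core of the ROR element, AGGTCA on either strand, was in 16.3% of all genes, in 8 higher members (12.1%) and in 8 lower members (23.5%). Counted per window, these shares were 14.3%, 8.79% and 19.6%. Among clock members it occurred in Nr1d2 and Per1, which were higher with CS, and in Nfil3 and Arntl, which were lower. In Arntl it lies after the annotated start. Nr1d2 and Nfil3 are shown as 1 example on each side, with the core in capitals, which Nfil3 carries in the reverse orientation as TGACCT.

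Nr1d2 (chr14:18239138-18239223, minus strand): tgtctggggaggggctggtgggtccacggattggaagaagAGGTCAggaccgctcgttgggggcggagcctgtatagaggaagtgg
Nfil3 (chr13:52981040-52981091, minus strand): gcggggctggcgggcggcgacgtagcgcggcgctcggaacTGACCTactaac

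The D-box TTATGTAA, searched on both strands, was rare, at 0.988% of all genes. Per3 was the only member with one and has it at 2 places within the window, beginning at -205 and -158 from the start, shown with the D-box in capitals.

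Per3 (chr4:151044823-151044910, minus strand): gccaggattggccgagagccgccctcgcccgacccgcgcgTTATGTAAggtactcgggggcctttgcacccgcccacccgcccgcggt
Per3 (chr4:151044776-151044863, minus strand): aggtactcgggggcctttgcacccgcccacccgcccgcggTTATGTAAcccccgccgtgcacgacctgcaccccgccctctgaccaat

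The hexamer AGAACA, a part of the glucocorticoid response element, on either strand, was found in 18.2% of higher members, 11.8% of lower members and 18.4% of all genes. The dioxin response core GCGTG was found in 56.1%, 55.9% and 43.1%, and the antioxidant response element TGACNNNGC, which can overlap TGACCT, in 16 of the 66 higher members, 9 of the 34 lower members and 2354 of the 15691 genes, both on either strand. A match of letters describes a window and is no evidence of binding, and genes among the members had more windows each than genes in general, 91 windows for 66 higher members and 51 for 34 lower members against 19143 for 15691 genes.

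Outside the clock, 20 members belonged to the other 22 pathway lists with 486 measured genes (4.12%, against 0.641% of all genes with a symbol). These lists, too, were chosen with earlier results known. The share of 0.641% also counts genes too dim to be members: 11506 of the 19505 were above the receptor level on any array. The acute phase list, proteins that epithelium and liver secrete in inflammation, had 4 higher members and 0 lower among 25, with a median of 0.09 over the list. Orm1, an orosomucoid that binds drugs and dampens inflammation, read 6.46 on air, 9.29 on continuous CS and 9.52 on intermittent CS, which is 7.69-fold. Its paralog Orm2 was below the receptor level on air at 4.42 and stood at 7.17 and 7.51 with CS, at least 4.44-fold higher. Such a bound sets the bright side against the receptor level. The probes of these near-identical genes may read each other, which was not tested. Ceruloplasmin, the copper-carrying ferroxidase encoded by Cp, was 3.59-fold higher (10.29, 12.36 and 11.92), and Serpina3n, an inhibitor of serine proteases, was 2.74-fold higher (5.46, 7.09 and 6.74). All 4 were higher on each CS array, while the continuous array gave the higher value for Cp and Serpina3n and the intermittent array for Orm1 and Orm2. Saa3, a serum amyloid A protein, was above air by more than any of them, at 5.71, 10.36 and 11.11, but the CS arrays were too far apart for the rule. Lcn2 was at the upper limit of the scale on every array, so no difference could be read.

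The glucocorticoid response list had 6 higher members and 1 lower among 32 measured genes, with a median of 0.15. That is 21.9% of the list, against 0.641% of all genes with a symbol. Rgcc, a regulator of the cell cycle, was highest above air, 6.81-fold at 9.65, 12.21 and 12.63. Zbtb16, the zinc finger transcription factor PLZF, was 4.59-fold higher at 8.14, 10.27 and 10.40. Sult1a1, a sulfotransferase of phenols, read 9.54, 10.97 and 11.38, and Mt2, a metallothionein that binds zinc and cadmium, 9.66, 11.21 and 10.82. Cebpd, a transcription factor of the acute phase, was 2.21-fold above air, and Per1 also stands in this list. Other genes of the list were above air but below the threshold on at least 1 CS array, such as Tsc22d3 (11.57, 12.25 and 12.48), Fkbp5 (7.37, 7.85 and 7.78) and Klf9 (12.26, 13.07 and 13.30). Dusp1 was below air on both CS arrays, at 18.61, 18.36 and 18.06. The lower member was Cdkn1a, the cell cycle inhibitor p21, at 13.36 on air, 11.66 on continuous CS and 11.44 on intermittent CS, 3.51-fold lower. It was also the only member among 18 p53 targets, whose median was 0.00.

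The aryl hydrocarbon receptor list, which responds to smoke hydrocarbons, had 0 members among 10 genes and a median of 0.02. Only 7 of the 10 were above the receptor level on any array. At the share of 0.641% over all genes, a list of this length would mostly hold none, so the 0 is no result about it. Ahr, the receptor itself, read 6.79, 7.33 and 7.63. Its targets Cyp1a1 and Cyp1b1, both cytochrome P450 enzymes, read 3.16, 3.18 and 3.16, below the receptor level on every array, and 4.45, 5.61 and 5.30, below it on air alone. Among 29 genes of NRF2 and antioxidant defense 1 was a member (3.45%, against 0.641% of all genes with a symbol), Gsta3, a glutathione transferase, at 9.29, 10.95 and 10.56. The median of this list was 0.09, with 20 genes above air by the mean of the CS arrays and 7 below it. Nqo1, the quinone reductase often used to read NRF2, was at the receptor level with 5.20, 5.29 and 5.20. Gclc was bright and below air on both CS arrays, at 16.49, 15.63 and 15.95. Hmox1 was above air, at 11.88 on air and 12.54 on each CS array. Mt2 was the only member among 10 metallothionein and zinc genes, although Mt1 came close at 14.55, 15.46 and 15.44.

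**Figure D3:**
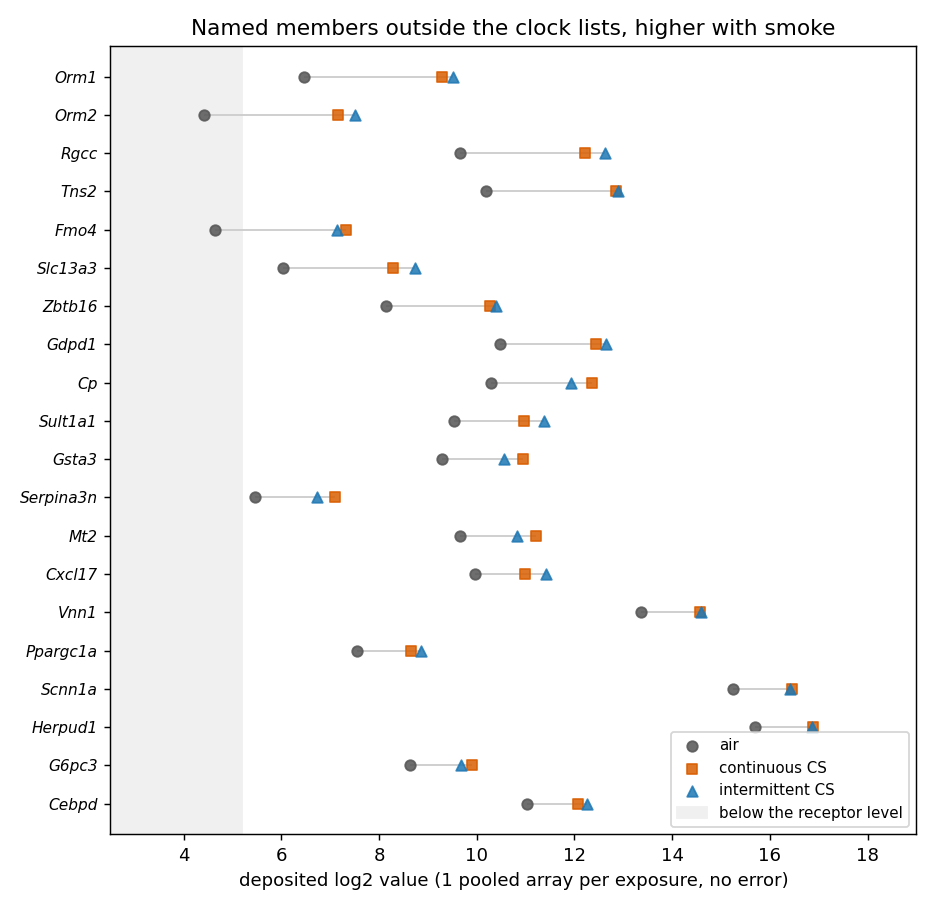
Deposited log2 value (x axis) of 20 higher members outside the clock lists (y axis), those with the largest differences or in a pathway list, ordered by mean CS minus air, with 1 symbol per array as given in the key. Shading marks values below the receptor level of the air array. On air Orm2 and Fmo4 lie in the shaded range, and for every gene both CS symbols lie to the right of air.

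Fatty acid oxidation and PPAR alpha targets had 2 higher members among 40 (5%, against 0.641% of all genes with a symbol) and a median of 0.18: Vnn1, the pantetheinase vanin, at 13.35, 14.56 and 14.58, and Ppargc1a, a coactivator that drives mitochondrial genes, at 7.55, 8.65 and 8.87. Cpt1a, which brings fatty acids into mitochondria, passed 2-fold on both CS arrays at 8.57, 9.59 and 11.26, but the CS arrays were 1.67 apart. Of the 40 genes in this list, 12 were at least 2-fold above air with intermittent CS and 4 with continuous CS. Among all 19505 genes with a symbol, the same counts were 167 with intermittent CS and 237 with continuous CS. G6pc3, a glucose-6-phosphatase, was the only member among 30 genes of glucose metabolism and hypoxia. Cholesterol synthesis and fatty acid synthesis had 0 members among 22 and 25, and at 0.641% lists of this length would mostly hold none. Scnn1a, the alpha subunit of the epithelial sodium channel that clears fluid from the airspace, was the only member among 21 genes of ion and fluid transport, at 15.24, 16.46 and 16.40. Herpud1, which takes part in the degradation of misfolded proteins, was the only one among 26 genes of the unfolded protein and heat shock response, at 15.69, 16.88 and 16.86. Scnn1a and Herpud1 each stood above air by nearly the same amount on both CS arrays.

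Chemokines split. Cxcl5, a chemokine for neutrophils that mouse AT2 cells make, was at 10.05 on air, 7.55 on continuous CS and 7.35 on intermittent CS, 6.08-fold lower. Cxcl17, a mucosal chemokine, was 2.34-fold higher at 9.97, 10.98 and 11.41. No other gene of the 37 cytokines and chemokines met the rule, and the median of the list was 0. Il18r1, the receptor chain for interleukin 18, is in no list and was lower at 14.32, 13.11 and 13.18. Among lists of epithelial state, Sfn, a 14-3-3 protein, was the only member of 16 genes of transitional and injured epithelium (7.32 on air, with differences of -1.31 for continuous CS and -1.70 for intermittent CS). Tgfb3, a transforming growth factor, was the only member of 42 genes of Wnt, BMP, TGF-beta and FGF signaling (11.13, 9.58 and 9.67), and Cebpd the only one of 24 lung epithelial transcription factors. No gene was a member among 24 of proliferation, 29 of the interferon response, 16 of MHC class II and antigen presentation, 25 immediate early genes and 12 of RNA quality and dissociation stress. At a share of 0.641% over all genes, lists of this length would mostly hold none. The median of the immediate early genes was -0.30, and that of the RNA quality list was 0.01.

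Most members, 92 of the 125 with a symbol, were in no list. The higher ones with the largest differences were Tns2, a tensin of focal adhesions, at 10.19, 12.85 and 12.89 (6.40-fold), Slc13a3, a carrier of dicarboxylates, at 6.04, 8.29 and 8.74 (5.55-fold), and Gdpd1, a lysophospholipase D, at 10.48, 12.44 and 12.65 (4.19-fold). Fmo4, a flavin monooxygenase, was below the receptor level on air at 4.65 and at 7.33 and 7.13 with CS, at least 4.12-fold higher. In each of these both CS arrays stood above air, as the rule requires, and the gap between the CS arrays was widest in Slc13a3.

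Several enzymes that handle foreign or reactive compounds were among the smaller differences, named after their values were seen and counted in no list. Cyp2b10, a cytochrome P450 that responds to drugs in mouse liver, was 2.96-fold higher (13.69, 15.19 and 15.33). Dcxr, a reductase of dicarbonyls and xylulose, was 2.76-fold higher, and Ephx1, the microsomal epoxide hydrolase, 2.02-fold. Alas1, the rate-limiting enzyme of heme synthesis in most tissues, is not of this group and was 2.26-fold higher. Membrane carriers included Slc7a5, which imports large neutral amino acids (8.93, 10.32 and 10.80), Slc15a1, a carrier of small peptides (10.21, 11.32 and 11.40), and Slc31a1, the copper importer CTR1 (13.83, 14.92 and 14.89). All 3 carriers were higher on each CS array.

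Relatives within a family did not always share a direction. Pim3 was higher with CS at 7.22, 8.76 and 8.78, while Pim1, a kinase of the same family, was lower at 13.82, 12.74 and 12.30. Cish, which restrains cytokine receptors, was lower too, at 9.89, 8.72 and 8.47. The monocarboxylate carrier Slc16a7 was higher (11.17, 12.48 and 12.57) and its relative Slc16a6 lower (11.39, 9.95 and 9.99). Rab3a and Rab3c, small GTPases of regulated secretion, were 2.38-fold and 2.27-fold higher, and Rab27b, which acts in the same process, was 2.66-fold lower at 13.39, 11.78 and 12.17. Flcn, or folliculin, a regulator of nutrient signaling at the lysosome, was higher at 10.61, 12.08 and 12.12, and its binding partner Fnip2 was lower at 9.62, 7.86 and 8.04. Other regulators of growth and nutrient use were Foxo3 (8.27, 9.35 and 9.36), Klf15 (7.09, 8.24 and 8.47) and the arginine sensor Castor1 (5.79, 6.96 and 6.99) on the higher side and Sesn3 (12.44, 11.43 and 11.23) on the lower side. These relatives were picked once their values had been seen.

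The lower members outside the clock were led by Ccnjl, a cyclin-like gene, which was at 8.81 on air and below the receptor level on both CS arrays, at 4.80 and 4.65, so at least 12.6-fold lower. Klhl13, an adaptor of a ubiquitin ligase that acts in cell division, was likewise below that level with CS, at 7.76 on air and 5.11 on each CS array, at least 6.11-fold lower. Avpr1a, a vasopressin receptor, was at least 3.16-fold lower. For these 3 genes air was the only array with a level above the receptor clusters.

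Glipr2, a protein of the Golgi membrane, was 6.08-fold lower at 10.71, 8.28 and 7.94. Tmem171, a membrane protein, read 10.77, 8.37 and 8.59, and Fam71a 10.88, 8.79 and 8.54. Dtx4, a ubiquitin ligase of the deltex family, was 4.13-fold lower, Lonrf3, which has a RING finger, 3.81-fold, and Inpp4b, a phosphatase of phosphoinositides, 3.68-fold. Each was lower on both CS arrays with a gap under 0.5 between them, which the rule requires. Smaller differences included Cds1, which makes the CDP-diacylglycerol used for phosphatidylinositol (9.68 on air, with differences of -1.69 and -1.30), Itga6, a laminin-binding integrin (10.49, 9.21 and 8.88), Dapk1, a kinase of cell death (14.23, 12.67 and 12.91), and Azin1, which protects ornithine decarboxylase from its antizyme (16.53, 15.41 and 15.49). All 4 stood well above the receptor level on every array.

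**Figure D4:**
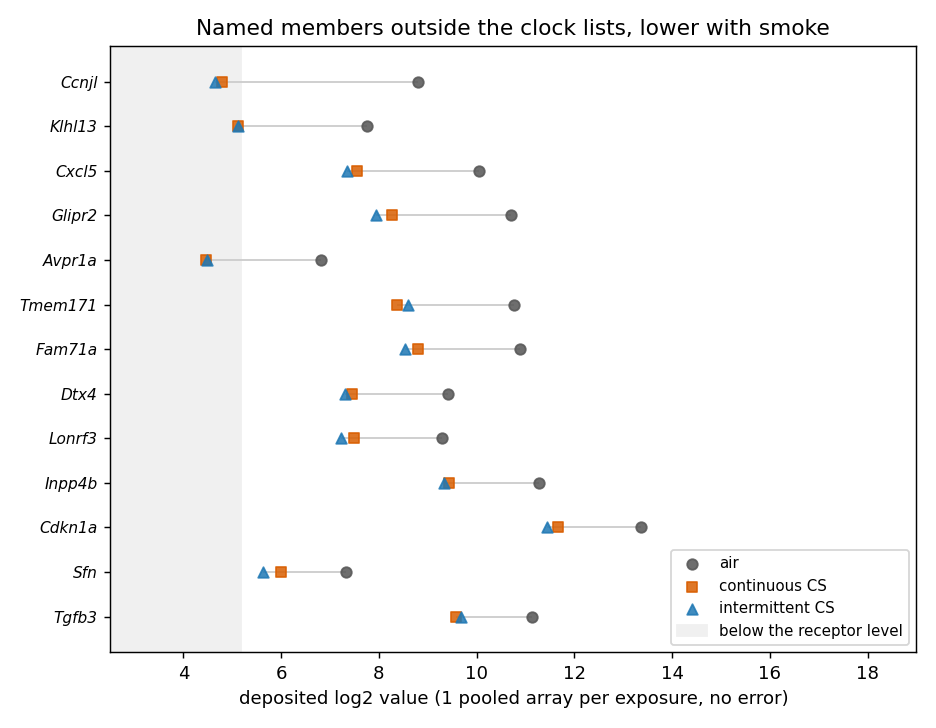
Deposited log2 value (x axis) of 13 lower members outside the clock lists (y axis), those with the largest differences or in a pathway list, ordered by mean CS minus air, with 1 symbol per array as given in the key. Shading marks values below the receptor level of the air array. The CS symbols of Ccnjl, Klhl13 and Avpr1a lie in the shaded range, and for every gene air is the rightmost symbol.

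In 9 higher members the air value, and in 8 lower members both CS values, lay below the receptor level, so their folds are lower bounds. Besides those given above, the bounds ran from 1.16-fold for the receptor gene Olfr1167 to 2.55-fold for Leo1, a subunit of a transcription elongation complex. Members without a symbol numbered 7 on the higher side, with differences from 1.01 to 2.64, and 2 on the lower side, at -1.32 and -2.29. Of the 125 named members, 124 are protein coding genes in RefSeq and B130006D01Rik is a long noncoding RNA. Exactly equal values on both CS arrays were found in 6 of the 134 members, against 27.5% of all clusters. A cluster that ties on every array cannot meet the distance rule, so these figures are not alike. No source used here says why values tie.

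None of the 190 measured marker genes of 14 cell types was a member, which is close to the 0.641% of all genes with a symbol and is no result about the markers. This holds for AT1, club, ciliated, endothelial, fibroblast, leukocyte, neutrophil, macrophage, dendritic, lymphoid, erythroid and mesothelial lists as well as for AT2 cells. Their levels did vary between arrays in other patterns. The median of the 18 endothelial markers was 0.92 for continuous CS against air and -0.02 for intermittent CS against air, with a summed level of 13.83 on air, 14.89 on continuous CS and 13.74 on intermittent CS. The median difference from air of the 18 neutrophil markers was 0.19 with continuous CS and -0.42 with intermittent CS, and that of the 18 leukocyte markers was 0.10 and -0.56. The part of these cell types in the members' differences was not tested. In pooled cells, fewer cells of a type and less RNA per cell cannot be told apart.

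The limits of the rule cut through a continuum. Just inside 1 log2 unit were Sh3pxd2a and Dpep1, each at 1.00 on the CS array nearer to air, and Tle3 at -1.01. Just outside were Tppp3, Sdad1 and Nr4a3, where the nearer CS array fell short of 1 log2 unit by less than 0.01. Inside the gap of 0.5 were Tspan4 at 0.486, Slc7a5 at 0.481 and Slc13a3 at 0.450, and outside it Pik3ap1 at 0.519, Kcne2 at 0.536 and Fgfr3 at 0.637. Leaving out receptor and predicted genes, the members nearest to the receptor level were Ppp1r1b, Fbp2 and Trmt9b. A further 11 clusters were 2-fold higher and 11 were 2-fold lower on both CS arrays but 0.5 or more apart, among them Rasl11a at 13.97, 10.78 and 11.76 and Atf3 at 14.18, 12.93 and 12.13. Past 2-fold in a given direction on continuous CS alone were 141 clusters above air and 41 below, and on intermittent CS alone 76 above and 92 below. These counts, too, keep the brighter side above the receptor level. They include Tlr13 and Lilrb4a, which passed 2-fold in opposite directions on the CS arrays.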

How the data were processed

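GFP-high, EpCAM-high AT2 cells pooled from 3 mice per exposure were hybridized, 100 ng of RNA each, to 3 Clariom S arrays. From scans analysed in the Transcriptome Analysis Console, the authors deposited log2 values for 22206 transcript clusters. The sources used here do not give its version, background correction or normalization. Arrays have no read depth, and their number, 1 per exposure, limits the precision.

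The deposited values were used unscaled. Symbols came from the platform annotation. Members and gene lists were chosen with earlier results of these data known. Where a gene had several clusters, the brightest one was used. Named genes are the 15 largest differences on each side (predicted genes and receptors left out), members of any of 38 gene lists (up to 4 more per list by size), and the 3 nearest to each threshold. Genes that are no members, and members outside these, were named after their values were seen. A fold with the dim side below the receptor level is a bound. Promoters and gene types came from RefSeq, GRCm38.p6.

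The alternatives were median centring, quantile normalization, cyclic loess, an offset of 32, a floor, other brightness filters, distances and gaps, and counting symbols. Steps were tested on simulated data. Python 3.11.15, numpy 2.4.6, pandas 2.3.3, matplotlib 3.10.9, R 4.3.3 and limma 3.58.1 were used.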

Additional observations from a re-analysis of the deposited data

Results flagged for a closer look

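Of all clusters, 2 were at least 2-fold from air in opposite directions on the CS arrays, above air with continuous CS and below it with intermittent CS. Tlr13, a receptor for bacterial ribosomal RNA in mouse, stood at 5.14 on air, 6.31 on continuous CS and 4.09 on intermittent CS, a difference of -2.22 between the CS arrays. Its air and intermittent CS values were below the receptor level, so its distance below air and the size of this difference could not be read above it. The inhibitory myeloid receptor Lilrb4a stood at 10.48, 11.57 and 9.08, a difference of -2.49. With 1 array per exposure the difference was not tested.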

How the results depend on the processing

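The number of members depends mainly on the distance from air. At 1.5-fold there were 333 higher and 234 lower clusters, and at 3-fold 20 and 17. Under the other scalings, filters and gaps the counts stayed within 1.5 times the reported 87 and 47, and no direction was reversed. The lowest counts, 63 higher and 33 lower, came with a gap of 0.25, under which Arntl, Bhlhe41, Nfil3, Per2, Tspan4 and Wee1 were no longer members. Wee1 was also lost under quantile normalization. An offset of 32 kept 102 of the 134 members and lowered the median of the clock repressors and outputs to 1.64. No paired analysis was possible because each exposure has 1 array. A single air array stands behind every difference, and leaving out an array leaves no value.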
